A study of Nematostella vectensis with 66 samples.

Results

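The 100 gene models described here are from the sea anemone Nematostella vectensis. Among gene models with little correlation to 1 gene model, NVE20622, their transcript level varied most between single adult animals. They were chosen by measured values. Levels were taken as CPM, the count of a gene model as a share of the total count of its library, scaled to 1000000 counts, and put on the scale log2(CPM + 2). Of 24265 gene models, 7658 had a mean of at least 15 CPM in 35 single-animal libraries. The mean of each hour was subtracted, 5262 gene models then had an absolute correlation below 0.3 with NVE20622, and the 100 with the largest residual standard deviation (SD) are the members. The limit on correlation left out 209 gene models with a larger SD than the last member, so the members are not the most variable of all gene models.

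The study followed whole-animal RNA through the daylight hours in the field. Laboratory-reared adults, descended from a marsh population, were placed in a marsh pool in 10 pens and preserved at 10 hourly time points from ZT3 to ZT12 (ZT, Zeitgeber time, the hour of the light cycle). Each time point gave libraries of pooled animals, 2 per pool, and libraries of single animals, for 29 pooled and 37 individual libraries. There was no other treatment and no genotype label, so every group is the same stock in the same place at another hour. The pooled groups hold 3 libraries each, except ZT6 with 2, and the individual groups hold 4 each, except ZT4 with 1. The letter D library of ZT4 carries a pooled label although the protocol makes letter D a single animal, and the label was followed. The labels do not tie animals to pens, so hour and pen cannot be told apart.

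Nematostella is a cnidarian that reproduces by spawning and also asexually, by splitting or pinching off a part of the body. A laboratory stock can therefore hold clone mates beside genetically different animals. A whole-animal library averages over all of its tissues, including stinging cells, digestive cells and, in adults, gonad.

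The 27 pools used here had 507303 to 888707 counts, and the 35 animals 424453 to 909746. Following the rule, 2 individual libraries (ZT3 B and ZT4 C) stood outside the choice of members, and 2 pools (ZT4 E and ZT5 E) that share a block of genes with them were set apart in the same way. In ZT3 individual B only 1 member was above the range of the 35 animals and 2 were below it, and in ZT4 individual C 2 were above and 2 below. The members together took 0.857 to 1.89% of the counts of a pool and 0.741 to 2.44% of those of an animal. The gene model identifiers could not be paired with gene names (0 matched), so the members are given by identifier and no function is stated. How reads that match several near-identical gene models were counted is unknown here, which leaves the level of any single member uncertain to that extent. In whole animals, fewer cells of a type and less RNA per cell cannot be told apart.

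The values that chose the members are a description. Their residual SD between animals ran from 1.17 to 3.47 log2 units with a median of 1.53, where the median over the 7658 gene models was 0.443. Mean levels ran from 15.5 to 1906 CPM, with 30 members at 100 CPM or more and 40 below 30 CPM. At the edge of the list, NVE21209 (SD 1.17) and NVE15726 (SD 1.17) were the last inside, and NVE24192 (SD 1.17) and NVE9393 (SD 1.16) the first outside. At the limit on correlation, NVE16219 (r of -0.30 with NVE20622) and NVE910 (-0.27) were inside, and NVE4899 (0.30) and NVE24693 (0.30) outside. NVE20622 itself was between 0 and 3268 CPM in the animals, with a median of 4.85 CPM.

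Pools took no part in the choice, and the members were variable there too. Of the 100, 97 had a residual SD above 1 log2 unit between the 27 pools, against 8.11% of all 7658 gene models. The members' SD between pools ran from 0.69 to 4.21 log2 units with a median of 1.85, and the median of the 7558 other gene models was 0.485. The members below 1 were NVE16219 (0.69 between pools and 1.27 between animals), NVE7457 (0.74 and 1.34) and NVE23912 (0.79 and 1.19). The SD was larger between pools than between animals in 77 members, and in 68% of all gene models.

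**Figure D1:**
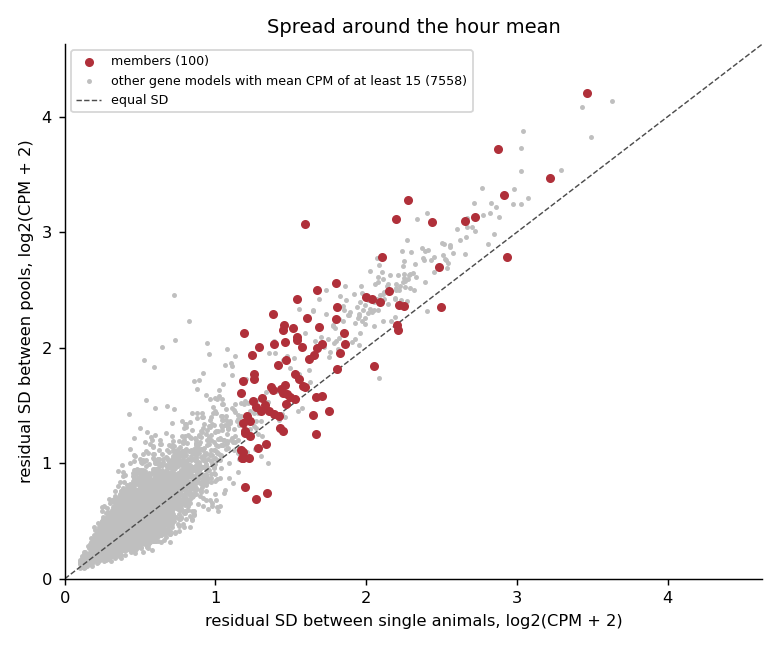
Residual SD around the hour mean, in log2(CPM + 2) units, between 27 pools (vertical axis) and between 35 single animals (horizontal axis). Red points are the 100 members, grey points the other 7558 gene models and the dashed line equal SD. The members lie right of an SD of 1.17 by their choice, and 97 of them lie above 1 on the vertical axis.

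The member with the largest spread, NVE20047, was present or nearly absent. It had 0, 1.38 and 1312 CPM as the lowest, median and highest level of the 27 pools, and 0, 198 and 1011 CPM in the 35 animals. No count was found in 13 pools and in 8 animals. No pool lay between 21.5 and 290 CPM and no animal between 7.77 and 67.9 CPM, which left 12 pools and 24 animals on the high side.

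The same pattern appeared for NVE20047 within ZT7, ZT8, ZT9, ZT10 and ZT12, but not at every hour. At ZT7 the pools had 0, 0 and 530 CPM, and the animals 0, 1.48, 364 and 826 CPM. At ZT9 the pools had 0, 0 and 427 CPM, and the animals 0, 0, 67.9 and 344 CPM. Libraries at 0 and libraries at 344 CPM or more stood side by side at ZT7 and ZT9. At ZT8 the pools had 0, 0 and 441 CPM, and the animals 0, 0, 234 and 638 CPM. The ZT10 pools had 0, 337 and 575 CPM, and the ZT10 animals 0, 152, 204 and 302 CPM. The ZT12 pools had 0, 1.38 and 1312 CPM, and the ZT12 animals 0, 198, 284 and 434 CPM. At ZT5 only the pools included libraries at 0, with 0, 0 and 290 CPM in pools and 158, 455, 464 and 475 CPM in animals. So it was at ZT3, with 0, 0 and 506 CPM in pools and 142 to 383 CPM in animals. None of the ZT4 libraries was low, with 366, 388 and 471 CPM in pools and 409 CPM in the animal. Both ZT6 pools were at 0, while the ZT6 animals had 0, 1.34, 176 and 547 CPM.

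NVE342, the second in spread, was low in most libraries. It had 0, 3.94 and 845 CPM in pools and 0, 1.69 and 664 CPM in animals (lowest, median and highest). On the high side were 8 of 27 pools, from 236 CPM, and 9 of 35 animals, from 101 CPM. NVE19300 was found at 0 in 17 pools and in 18 animals, and reached 354 CPM in a pool and 264 CPM in an animal.

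Of the remaining leading members, NVE8482 was more often present than absent. It had 0, 112 and 436 CPM in pools and 0, 69.2 and 193 CPM in animals. NVE23270 had 0, 106 and 311 CPM in pools and 0, 63.1 and 292 CPM in animals. These 2 members were high in 17 and 16 pools and in 22 and 23 animals. NVE16085 was without a count in 20 pools and 18 animals, and its highest levels were 164 CPM in a pool and 196 CPM in an animal. NVE22422 and NVE7169 had no gap of over 2 log2 units in pools or in animals. NVE22422 had 0, 8.00 and 461 CPM in pools and 0, 17.7 and 509 CPM in animals, and NVE7169 had 0, 150 and 1153 CPM in pools and 1.58, 121 and 1217 CPM in animals.

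**Figure D2:**
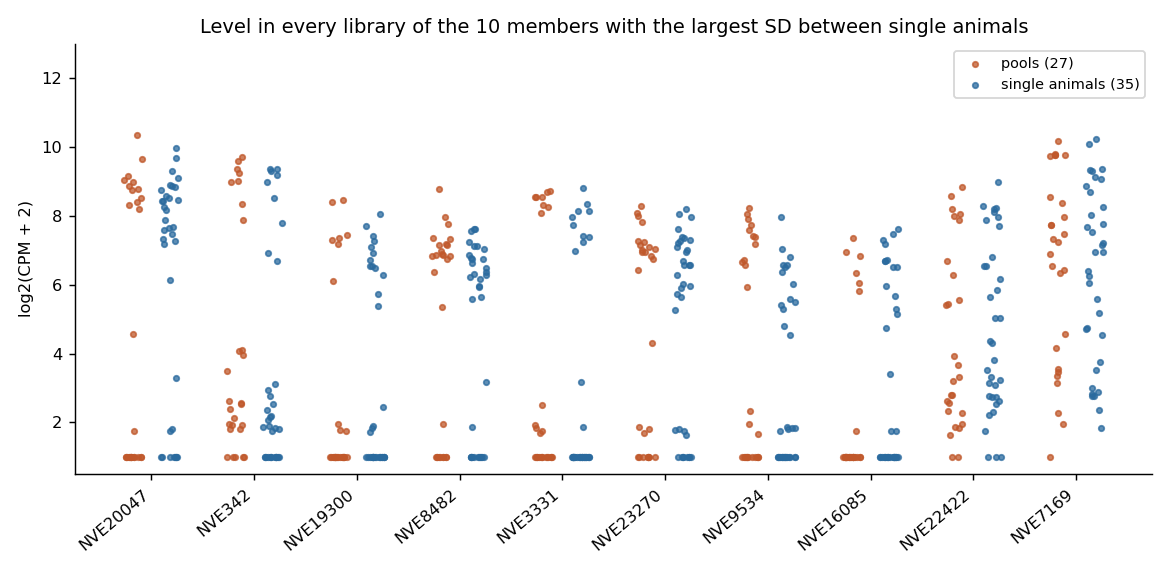
Level of the 10 members with the largest residual SD between single animals, as log2(CPM + 2), in each of 27 pools (orange, left) and 35 single animals (blue, right). A value of 1 is a count of 0. NVE20047, NVE342, NVE19300, NVE8482, NVE3331, NVE23270 and NVE9534 leave an empty band of over 2 log2 units between low and high libraries in both kinds, NVE16085 does so in pools, and NVE22422 and NVE7169 do so in neither.

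Libraries with no count at all of a member were frequent. With 3 counts as the limit that a count of 0 allows, a level of 0 stands for up to 3.3 to 7.07 CPM in the 62 libraries, by counting error only. No count was found in at least 1 pool for 68 members, against 4.79% of the 7658 gene models, and in at least 1 animal for 66 members, against 4.28%. A member was counted as split where its sorted levels had a gap of over 2 log2 units with at least 3 libraries on each side. By this measure 29 members were split in the pools, against 1.75% of all gene models, and 20 in the animals, against 0.797%. The share in animals follows in part from the choice by spread, and the share in pools does not use those libraries. In 17 members both kinds of library were split. Among these, the share of libraries on the high side was lower in pools for 12 members and higher in pools for 5, with medians of 63% in pools and 68.6% in animals. For NVE20047 it was 44.4% of pools and 68.6% of animals, and for NVE342 29.6% of pools and 25.7% of animals.

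The 2 members with the highest mean level were variable over a range far above 0, apart from 1 pool with no count of NVE23459. NVE18268 had 188, 1331 and 2775 CPM in pools and 130, 1706 and 3962 CPM in animals. NVE23459 had 0, 839 and 2456 CPM in pools and 67.9, 972 and 4893 CPM in animals. Of the 7 members with a mean of at least 500 CPM, 4 had an SD between animals above the members' median. The highest animal of a member was one of 28 different animals and led at most 9 members, and the highest pool was one of 25 and led at most 7. The top animal held a median of 9.9% of a member's summed CPM over the 35 animals and at most 25.2%, in NVE272. Depth moved with few members: 1 had an absolute correlation of at least 0.5 with the library total over the 35 animals, where 2.57% of all gene models did.

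Few members varied together, as for gene models at large. Of 4950 pairs of members, 149 (3.01%) had a Pearson r of at least 0.5 over the residuals of the 35 animals, where 2.41% of all pairs of the 7658 gene models did. These correlations describe libraries that share an hour, and for split members they mainly record which libraries were high. Of the 149 pairs, 30 (20.1%) also had an r of at least 0.5 between the 27 pools, against 3.23% of the other 4801 member pairs. Over all gene models 46.8% of the pairs that passed in animals passed in pools. In pools, 3.74% of all member pairs and 5.82% of all pairs of gene models had such an r, and the difference in carry-over was not tested. In both kinds of library 16 member pairs (0.323%) reached an r of at least 0.7, where 0.29% of all pairs did.

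Members with neighbouring identifiers varied together. Identifier numbers at most 5 apart occurred in 7 pairs of members, and all 7 had an r of at least 0.75 in pools and 0.79 in animals. Over the 12938 such pairs among all gene models the median r was 0.047 in pools and 0.043 in animals, and 1.03% reached 0.7 in both. The other 9 of the 16 member pairs that reached 0.7 in both had numbers farther apart. The comparison was chosen after seeing the values, and no source used here says whether the numbers follow the order of the genome.

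NVE4465 and NVE4464 show this directly. NVE4465 had 0, 147 and 310 CPM in pools and 0, 138 and 316 CPM in animals, and NVE4464 2.37, 118 and 669 CPM in pools and 1.48, 209 and 609 CPM in animals. The 22 pools with most NVE4465 were also the 22 with most NVE4464, and of the 35 animals 30 were high in both and 5 low in both. No animal was high in 1 of them only. For NVE4897 and NVE4900, the 20 pools on the high side of NVE4897 were the 20 with most NVE4900, and of the 30 animals on its high side 29 were among the 30 with most NVE4900. For NVE9534 and NVE9532 the overlap was 11 of 12 pools and 13 of 14 animals. The pairs without a gap were NVE10142 with NVE10144 (r of 0.79 in pools and 0.86 in animals), NVE15132 with NVE15137 (0.87 and 0.80) and NVE23460 with NVE23459 (0.75 and 0.79).

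**Figure D3:**
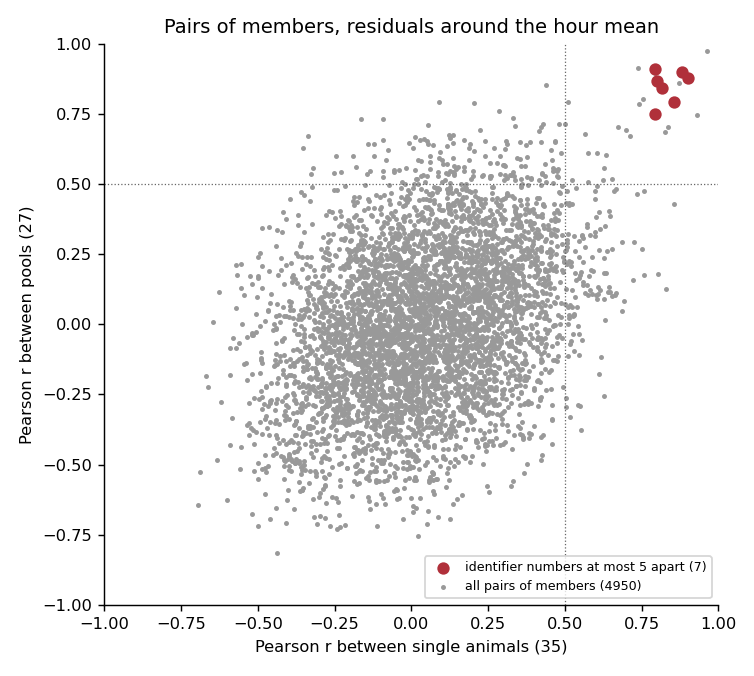
Pearson r of residuals around the hour mean for the 4950 pairs of members, between 27 pools (vertical axis) and between 35 single animals (horizontal axis). Red points are the 7 pairs whose identifier numbers are at most 5 apart and the dotted lines mark an r of 0.5. All 7 lie at 0.75 or above in pools and at 0.79 or above in animals.

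Clustering the members on the 35 animals gave 12 groups of at least 3, which hold 40 members, 19 pairs and 22 members in no group. The largest group had 6 members: NVE24510, NVE10958, NVE23460, NVE18269, NVE23459 and NVE18268, with a mean r of 0.44 in pools and 0.75 in animals. It came apart in the pools. Within NVE24510, NVE23459 and NVE23460 the r was 0.70 to 0.75 in pools and 0.79 to 0.93 in animals. Within NVE10958, NVE18268 and NVE18269 it was 0.90 to 0.98 in pools and 0.79 to 0.96 in animals. Between these trios the 9 pairs had an r of -0.04 to 0.47 in pools and 0.54 to 0.86 in animals. NVE10958 and NVE18268, whose identifiers are far apart, were the closest of all member pairs, with an r of 0.98 in pools and 0.96 in animals.

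The other groups held to different degrees. The mean r of the 12 groups in pools ran from 0.017 to 0.57, and 5 reached 0.4. NVE6608, NVE13591 and NVE25579 had the highest, 0.57 in pools and 0.56 in animals. NVE13292, NVE4748 and NVE14814 had the lowest, 0.017 in pools and 0.56 in animals. NVE4155, NVE18382 and NVE23517 (0.56 in pools and 0.72 in animals) and NVE14725, NVE22024 and NVE16219 (0.52 and 0.62) each had 1 of 3 pairs at an r of at least 0.5 in pools. NVE342, NVE272 and NVE8727 also had 1 of 3, with a mean of 0.31 in pools and 0.66 in animals. The 8 pools with most NVE342 were the 8 with most NVE272, and NVE8727 stood apart.

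For each of the 12 groups the relation between its 2 most variable members was read in the pools. In 9 groups the pools of 1 or both members were split, so the counts of pools are given without a test. A member that was not split was cut at its largest gap, so its high and low sides are arbitrary. Below, this held for NVE10142, NVE22422, NVE25605, NVE23912, NVE10958 and NVE4155. Their gaps ran from 0.21 log2 units (NVE23912) to 1.7 (NVE10142). Of the 27 pools, NVE4465 (high in 22) and NVE16239 (14) were both high in 12 and both low in 3. NVE13292 (20) and NVE4748 (19) had 16 and 4, and NVE18777 (8) and NVE10142 (6) had 5 and 18. NVE16085 (6) and NVE22422 (11) had 3 and 13, and NVE674 (11) and NVE25605 (22) had 11 and 5. NVE25722 (18) and NVE23912 (24) had 16 and 1, and NVE24510 (24) and NVE10958 (23) had 21 and 1. In NVE4155 (20) and NVE18382 (21) it was 17 and 3. Members that are each high in most pools overlap in many pools even if unrelated, so these counts alone do not show joint variation.

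The 3 relations that could be tested were positive. NVE14725 had 1.64, 90.7 and 944 CPM in pools and 3.18, 143 and 749 CPM in animals, and NVE22024 had 0, 22.3 and 203 CPM in pools and 0, 26.4 and 169 CPM in animals. Over the 27 pools their r was 0.71 (two-sided permutation test within the hour, Benjamini-Hochberg adjusted p = 0.0336 over 3 pairs) and their rho 0.62 (adjusted p = 0.0522), and r was 0.62 without the 2 pools farthest from the median. NVE6608 and NVE13591 did not pass the threshold, with an r of 0.57 (permutation test, adjusted p = 0.0549), a rho of 0.47 (adjusted p = 0.099) and an r of 0.43 without 2 pools. NVE14995 and NVE23259 had an r of 0.39 (permutation test, adjusted p = 0.222), a rho of 0.36 (adjusted p = 0.211) and an r of 0.48 without 2 pools. In 8 of 27 fits with 1 pool left out no pair passed. The pools concerned were ZT3 E and F, ZT7 F and G, ZT8 E and G, ZT10 E and ZT12 F, and the smallest adjusted p without ZT10 E was 0.0814.

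Partners were then sought among all 7658 gene models, a search chosen after seeing the values. A partner had an absolute r of at least 0.7 in both kinds of library. Such a partner in the same direction was found for 33 members, against 25.5% of all gene models, and an opposed partner for 3 members, against 5.6%. NVE10067 and NVE18608 (r of 0.91 in pools and 0.90 in animals) and NVE15137 and NVE15134 (0.95 and 0.95) were among the closest. For 17 members a partner lay within 5 identifier numbers, against 2.89% of all gene models.

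The 3 opposed pairs are given with the levels of both models and of their sum. NVE3331 had 0, 0 and 422 CPM in pools and 0, 0 and 447 CPM in animals, and NVE3334, 3 numbers away, had 319, 738 and 986 CPM in pools and 322, 813 and 1132 CPM in animals. The 8 pools with most NVE3331 were the 8 with least NVE3334, and so were 9 of the 10 highest animals. No pool of NVE3331 lay between 3.71 and 272 CPM and no animal between 7.07 and 125 CPM. The sum of both models was 591 to 986 CPM in pools and 647 to 1132 CPM in animals. The residual SD of the sum was 0.22 log2 units in pools and 0.17 in animals. NVE3334 alone, which was never near 0, had an SD of 0.57 in pools and 0.34 in animals.

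NVE14982 and NVE14983, with consecutive identifiers, were also opposed, but their sum was less constant. NVE14982 had 2.78, 918 and 2130 CPM in pools and 3.42, 812 and 1745 CPM in animals, and NVE14983 had 286, 684 and 1289 CPM in pools and 313, 718 and 1450 CPM in animals. The 5 of 27 pools at 5.82 CPM of NVE14982 or less were of ZT3, ZT8, ZT9 (2 pools) and ZT10. The 22 pools on its high side were the 22 with least NVE14983, and of the 32 animals on its high side 31 were among the 32 with least. The sum was 899 to 2437 CPM in pools and 987 to 2123 CPM in animals, and the 5 pools low in NVE14982 had the 5 lowest sums. The residual SD of the sum was 0.41 in pools and 0.29 in animals, where NVE14983 alone had 0.57 in both. NVE9534 and NVE16635, whose identifiers are far apart, were opposed with a sum of 58.1 to 306 CPM in pools and 58.4 to 302 CPM in animals. The 12 pools with most NVE9534 were the 12 with least NVE16635, as were 11 of 14 animals, while 2 of those 14 animals were among the 14 with most NVE16635. The SD of their sum was 0.69 in pools and 0.50 in animals, where NVE16635 alone had 1.42 in pools and 0.43 in animals, so in animals the sum was the more variable.

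**Figure D4:**
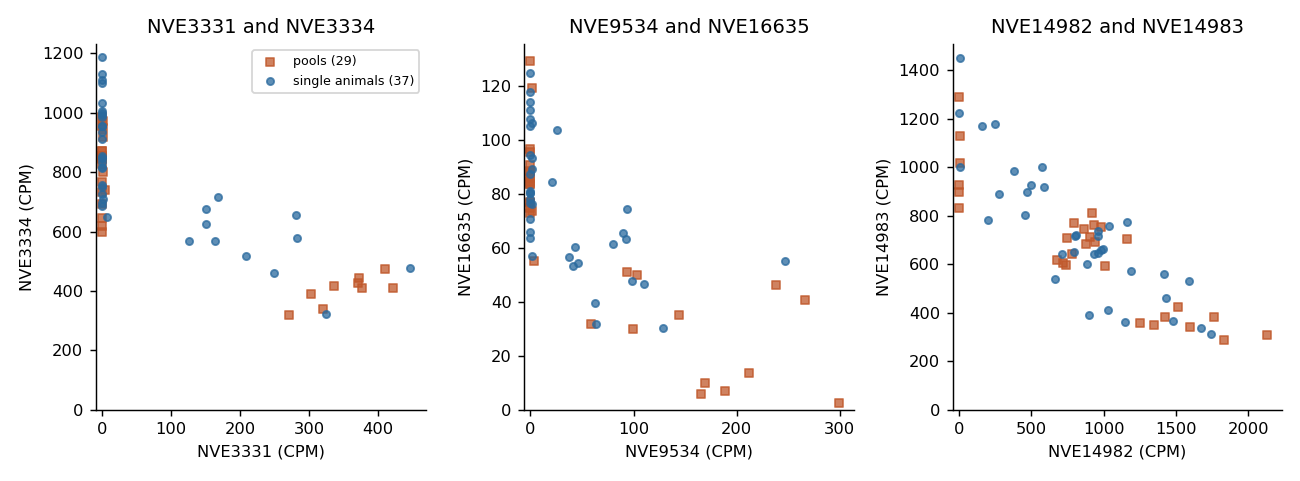
Level in CPM of 3 members (horizontal axes) and of the gene model opposed to each (vertical axes), with 1 point for each of 29 pools (orange squares) and 37 single animals (blue circles). In the 27 pools used, the 8 with most NVE3331 had the least NVE3334, and the 12 with most NVE9534 had the least NVE16635. The sum of NVE3331 and NVE3334 stayed between 591 and 986 CPM in the 27 pools used.

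Opposed pairs among the members were as frequent as elsewhere. An r of -0.5 or less in animals was found in 52 member pairs (1.05%), where 1.05% of all pairs of gene models had one. Of these, 8 member pairs (15.4%) also had an r of -0.5 or less in pools, where 19.3% did over all gene models. NVE4170 ran against NVE23517 (r of -0.64 in pools and -0.70 in animals) and against NVE4155 (-0.53 and -0.69), while NVE4155 and NVE23517 varied together (0.90 and 0.79).

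Levels were then compared between the hours over all 66 libraries. The choice of members removed the hour means, so apart from the limit on mean CPM it did not use differences between hours. The spread on which the members were chosen is however the error of this test. All 100 members were tested with edgeR's quasi-likelihood test with Benjamini-Hochberg adjustment, and 4 changed over the 10 hours at an adjusted p below 0.05, against 21.9% of the 10916 gene models tested. At an unadjusted p below 0.05 there were 17 members and 3930 gene models. DESeq2 called 4 members, against 25.1% of gene models, and limma 9, against 27.9%.

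NVE14814 changed most clearly, with low levels in the morning. It averaged 37.6 ± 24.5 CPM at ZT3 (SD, n = 7), 50.1 ± 24.3 CPM at ZT5 (n = 7), 305 ± 170 CPM at ZT9 (n = 7) and 205 ± 124 CPM at ZT12 (n = 7). All 7 libraries of ZT12 were at 101 CPM or more and all 7 of ZT3 at 65.9 CPM or less, so these hours did not overlap. The log2 fold change of ZT12 over ZT3 was 2.37 (SE 0.58), and the adjusted p of the 10 hours was 0.000564 by edgeR. NVE674 averaged 0.82 ± 1.64 CPM at ZT4 (SD, n = 4), 2.31 ± 3.87 CPM at ZT7 (n = 7) and 93.3 ± 54.1 CPM at ZT9 (n = 7), where every library had at least 38.5 CPM. Its adjusted p was 0.00122 by edgeR. The libraries of ZT12 and ZT3 overlapped, with a log2 fold change of 1.50 (SE 0.93).

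NVE3331 was not detected above 7.07 CPM at ZT4, ZT7 and ZT11, and the highest library of each other hour had 320 to 447 CPM. All 4 animals were also at 0 at ZT5 and at ZT8. The pools had 0, 336 and 409 CPM at ZT5 and 0, 1.24 and 320 CPM at ZT8. At ZT9 the pools had 0, 377 and 422 CPM and the animals 0, 0, 151 and 282 CPM. At ZT11 the pools had 0, 0 and 3.71 CPM and the animals 0, 0, 0 and 7.07 CPM. The adjusted p was 0.00396 by edgeR, 0.234 by DESeq2 and 0.892 by limma, and the change of ZT12 over ZT3 was -0.86 (SE 1.21). NVE4748 averaged 48.4 ± 28.6 CPM at ZT9 (SD, n = 7), the highest hour, and 3.87 ± 4.70 CPM at ZT11 (n = 7), the lowest, with an adjusted p of 0.0364 by edgeR. It was no longer called with any 1 of 5 ZT11 libraries left out (individual C and D, pooled E, F and G). Its adjusted p then rose above 0.05, up to 0.078 by edgeR.

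**Figure D5:**
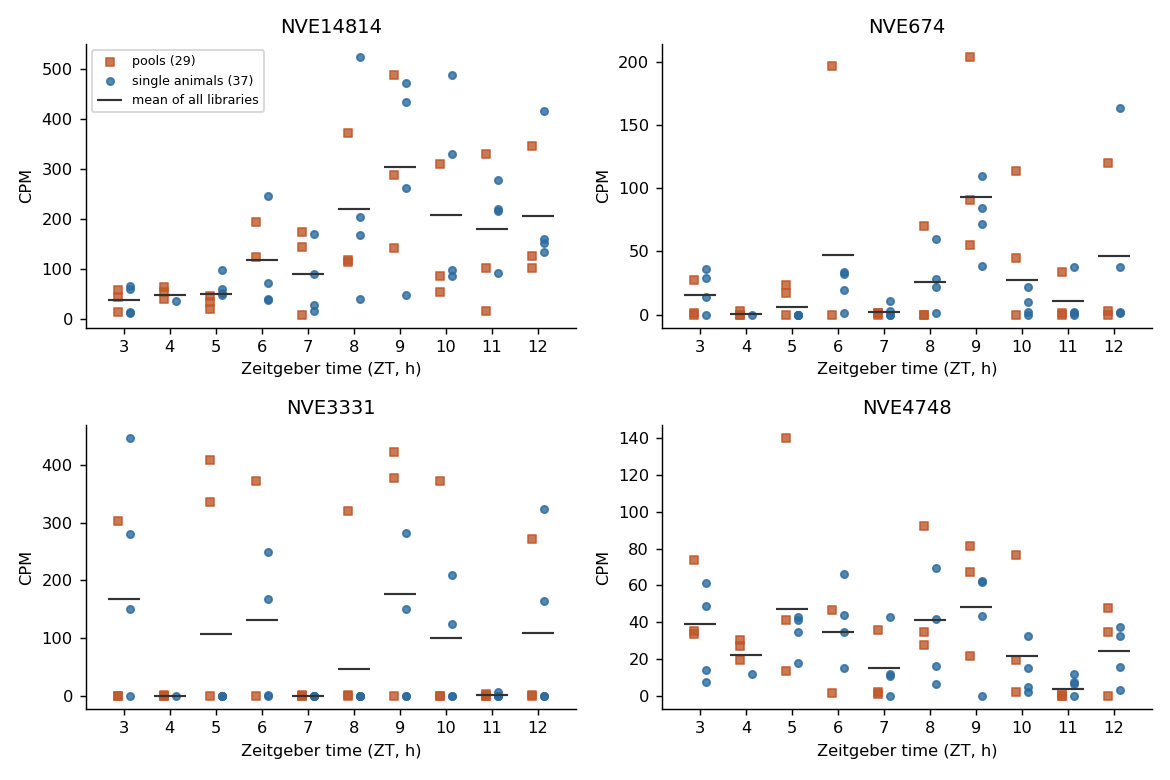
Level in CPM by Zeitgeber time of the 4 members that changed over the 10 hours, in 29 pools (orange squares, left) and 37 single animals (blue circles, right), with the mean of all libraries of the hour as a bar. NVE14814 averaged 37.6 CPM at ZT3 and 305 CPM at ZT9, and NVE3331 had no library above 7.07 CPM at ZT4, ZT7 and ZT11.

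In the 29 pools alone, which the choice did not use, none of the 100 members changed over the hours by edgeR, against 0.673% of the 10997 gene models tested. At an unadjusted p below 0.05 there were 12 members and 1500 gene models, while DESeq2 called 5 of 87 members, against 6.28% of 6493 gene models, and limma 4 members, against 2.83% of 10997. The smallest adjusted p was 0.0716 by edgeR, of NVE7457, which had 46.8, 189 and 831 CPM as the lowest, median and highest of the 27 pools and 16.5, 229 and 1080 CPM in the 35 animals. The share over all gene models rested largely on the pools ZT4 E and ZT5 E. Without them edgeR called 1 of 10882 gene models in pools alone, and 0 members.

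No member passed the edgeR test of pools against single animals, where 0% of the 10916 gene models passed, and DESeq2 and limma also called none. At an unadjusted p below 0.05 there were 6 members and 597 gene models. The log2 fold change of pools over animals ran from -0.95 to 1.47 over the members, with a median of -0.05 and a median SE of 0.38. It was positive in 46 members and negative in 54. NVE25986 had the smallest p, with 0, 3.71 and 74.6 CPM in pools against 0, 24.2 and 73.6 CPM in animals, and a log2 fold change of -0.95 (SE 0.40, adjusted p = 0.839 by edgeR). The largest positive change was that of NVE3331, 1.47 (SE 0.76, adjusted p = 0.926 by edgeR).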

How the data were processed

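RNA-seq counts of 24265 gene models in 66 libraries, whole numbers as deposited by the authors, were the only values used. Per the labels, RNA came from whole animals, libraries followed Meyer et al. and the reference was the genome of Putnam et al.; reads were aligned with Bowtie2, per the submitters' processing notes. Not given in the sources used here: the counting tool, annotation, strand setting and any use of molecular identifiers. Library totals ran from 251647 to 909746 counts (median 640195), so 15 CPM is 9.6 counts in a library of median total. Replicates are separate animals or pools per the labels.

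CPM used column totals, with a pseudocount of 2 and hour means removed. Residual SDs used the number of libraries less the hours as degrees of freedom. Groups came from average linkage on 1 - r with a distance limit of 0.5. Hour and library kind were tested on counts with edgeR 4.0.16 in R 4.3.3 (quasi-likelihood F test, robust, TMM, expression filter with a minimum count of 10, threshold 0.05 adjusted over all gene models). The time effect had library kind as covariate and 55 residual degrees of freedom, 19 in pools alone. Relations between pools used 100000 permutations within the hour. Alternatives were DESeq2 1.42.0, limma 3.58.1, other scalings, filters and pseudocounts, and libraries left out.

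The members and lists were chosen with earlier results of these data known. Named members are the 10 of largest SD, the 2 of largest SD in each group of at least 3, the 2 of highest mean CPM, up to 2 that rose and 2 that fell per test, those at the limits of the rule and those apart from their group. Pairs with near identifiers and opposed partners were named after seeing their values. The scripts were tested on simulated data. No sequence is printed.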

Additional observations from a re-analysis of the deposited data

Results flagged for a closer look

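In groups of 4 animals, library totals and the levels of 6 members (NVE20047, NVE3331, NVE14982, NVE14814, NVE674 and NVE4748) were searched for an animal far from the other 3, by Dixon's ratio of gap to range. Chance picks out about 1 in 20 groups where values follow a normal distribution, which split levels or many counts of 0 do not. Of the 63 searched, 5 were picked out, and this number was not tested against chance. NVE20047 was at 158 CPM in ZT5 individual B, and at 455 to 475 CPM in the other 3. NVE3331 was at 7.07 CPM in ZT11 individual B and at 0 in the other 3. This is no more than a count of 0 allows (3.3 to 7.07 CPM), so the animal is not clearly apart. NVE14814 was at 246 CPM in ZT6 individual A, against 36.4 to 71.2 CPM, and at 416 CPM in ZT12 individual B, against 134 to 159 CPM. NVE674 was at 37.7 CPM in ZT11 individual B, against 0 to 1.9 CPM. No library total was picked out.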

How the results depend on the processing

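The count of members that changed over the hours in all libraries was 4, 9 by limma (27.9% of all gene models), and 3 to 6 with each of 66 libraries left out; the other settings gave 3 to 5. In the pools alone it was 0, 5 of 87 by DESeq2 (6.28% of all gene models), 4 by limma (2.83%), and 0 to 2 with each of 29 pools left out. Between pools and animals it was 0 under every setting run. NVE14814 and NVE674 passed with each of 66 libraries left out and under 9 other settings; NVE3331 failed by DESeq2 (0.234) and limma (0.892), and NVE4748 by limma (0.322), without the filter on low counts (0.0667) and by edgeR's legacy method (0.0588, chosen after seeing the data). With the letter as a replicate block, 5 members were called in all libraries and 0 in pools alone. Same-letter libraries had a mean correlation of 0.021 and others of -0.002, and 31.5% and 30.9% of these pairs were above 0.1. Whether libraries of a letter share more than a name was not tested. Of the pool relations, 1 passed, 0 by Spearman and with a pseudocount of 0.5, 2 in all 29 pools, and 0 to 3 with a pool left out. Members with an SD above 1 between pools numbered 91 to 97, and 19.5 to 22.8% of correlated pairs carried over. A limit of 30 CPM on the mean kept 60 of 100 members, since the other 40 were below it by their level. The list kept 77 to 98 under 8 other settings and 91 or more without any 1 animal. Partners were found for 60 members at a limit of 0.6 and 19 at 0.8. Apart from the limit of 30 CPM, the cause of these moves was not tested. Depth limits what a count of 0 shows, since it allows up to 3.3 to 7.07 CPM in the 27 pools and 35 animals used. In the smallest of the 66 libraries, with 251647 counts and not among these, it allows more.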
